A study of Mus musculus with 7 samples.

Results

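Expression of 37 genes of glucose uptake, glycolysis, pyruvate use, the TCA cycle and the pentose phosphate pathway was examined in mouse CD8 T cells activated with or without the kinase Lck. The genes were chosen by name. Every non-control probe whose gene name in the scanner files equalled a listed symbol was taken, which gave 59 of the 55681 probes. The 37 genes comprised 4 membrane carriers, 16 glycolytic genes, 4 genes at the entry of pyruvate into the TCA cycle, 9 TCA cycle genes and 4 pentose phosphate genes. Of these, 36 were among the 14771 genes tested. Idh1, the cytosolic isocitrate dehydrogenase, was not tested because its probe was well above background on 2 of 7 arrays (Lck-/- 1 and Lck-/- 3).

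Naive T cells oxidise most of their fuel, and on activation they take up glucose, break it down to lactate and route carbon into biosynthesis. Glycolysis splits glucose into pyruvate, which leaves the cell as lactate or enters the mitochondria and the TCA cycle. The pentose phosphate pathway branches off at glucose 6-phosphate and makes NADPH and ribose for nucleotides. Lck is the kinase that phosphorylates the CD3 and zeta chains of the engaged T cell receptor.

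The WT group held 4 arrays and the Lck-/- group 3 arrays, each from a biological replicate according to the series. All cells were lymph node CD8 T cells of OT-1het, Rag-/- mice, which carry a T cell receptor specific for the ovalbumin peptide SIINFEKL and make no receptors of their own. All were exposed to 100 nM peptide for 24 h. The Lck-/- mice carried a knocked-in inducible Lck that was off after 7 days without dietary doxycycline. Diet is not given for the WT mice, so a difference in diet or in the inducible construct and the loss of Lck cannot be told apart. The promoter and cell type that drive the inducible Lck are not given in the sources used here.

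Values are log2 of the processed signal over the 75th percentile of the same array, so 0 is that percentile. Differences are Lck-/- minus WT. Between 46.6% and 61.1% of spots per array were well above background, and none was saturated. CD8 T cell markers were well above background for 6 of 6 genes, which fits the labelled cell type. In this bulk RNA, fewer cells of a type and less RNA per cell cannot be told apart. Lck itself read 7.44, 7.67, 7.36 and 6.04 across the WT arrays in order of their labels and 8.02, 6.21 and 6.17 across the Lck-/- arrays. The arrays labelled WT 4 and Lck-/- 1 thus went against their labels, and Lck did not pass the limma test (-0.32, SE 0.55, adjusted p = 0.961). Whether its probe lies in a deleted part of the gene is not given. Whether these samples were exchanged was not tested, so every group and direction below is that of the labels as given. Without Lck-/- 1, 16 of 36 members had differences above 0, and without both arrays 13 of 36. Most differences that turn or shrink without Lck-/- 1 are given with that value.

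No member passed limma's test at an adjusted p under 0.05, nor did any of the 14771 genes (0%). At an unadjusted p under 0.05 there was 1 member, Pfkfb3, of 36, against 1053 of all genes (7.13%; 4.94% higher and 2.19% lower in Lck-/-). The same gene was the only member whose groups did not overlap, against 1059 of all genes (7.17%; 5.08% higher and 2.09% lower). Neither count exceeded the background share. The members' differences had a median of 0.14, with 24 above 0 and 12 below, beside a median of 0.04 over all genes, of which 57.6% lay above 0. The data showed instead a spread between individual arrays, which was wider for uptake and glycolysis than for the TCA cycle and pentose phosphate genes. For 17 of the 20 carrier and glycolytic genes the top of this spread lay on Lck-/- 1, whose Lck signal went against its label. How the spread stood beside all genes depended on the scaling.

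**Figure D1:**
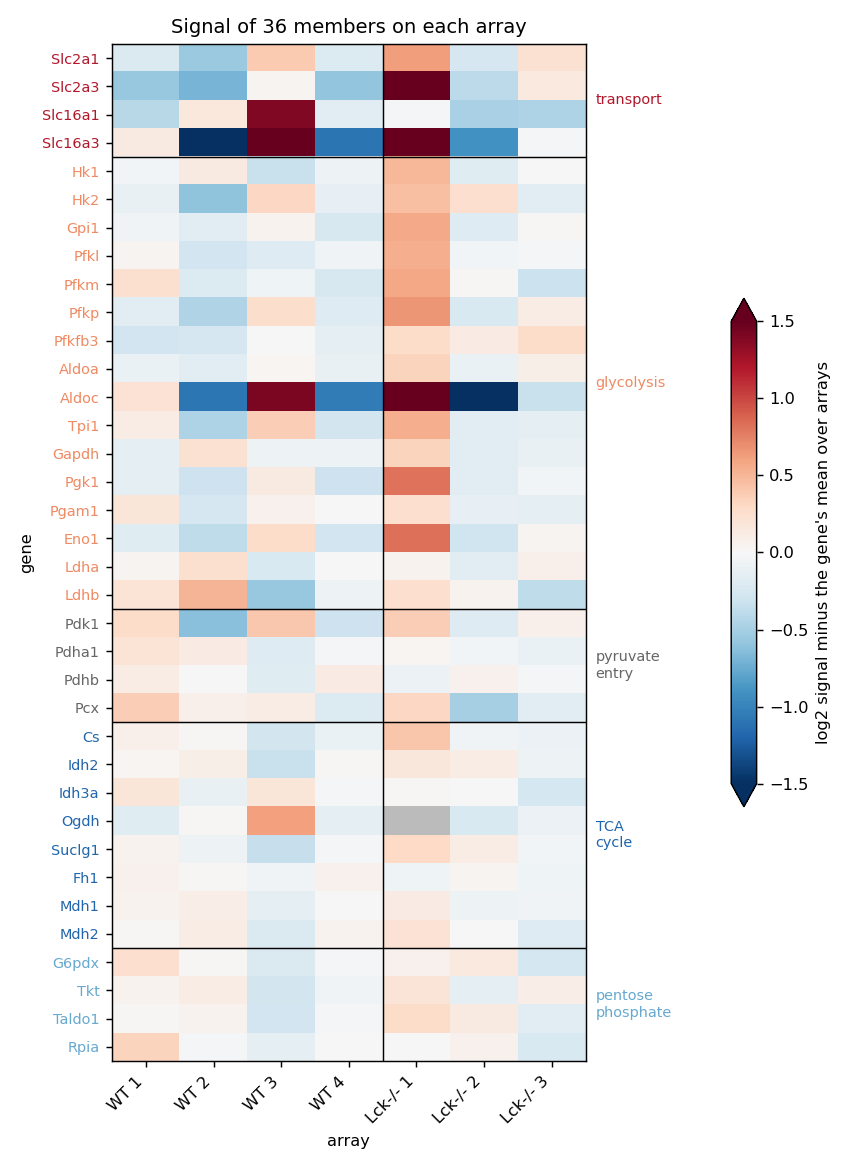
Log2 signal of the 36 tested members (rows, grouped by role) on each of the 7 arrays (columns), as the deviation from the gene's mean over arrays; the colour scale is limited to 1.5 in either direction and the grey cell is an outlier spot that was left out. Red cells of the carriers and glycolytic genes gather on Lck-/- 1 and, for some genes, on WT 3, while the TCA cycle and pentose phosphate rows stay pale.

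Slc2a3, which encodes the glucose carrier GLUT3, had the largest difference of any member. Its probe (mm9 chr6:122678075-122678134, minus strand) read 2.46, 2.33, 3.07 and 2.43 on WT 1 to WT 4 and 5.10, 2.63 and 3.17 on Lck-/- 1 to Lck-/- 3. The Lck-/- 1 array stood far above the other 6, and the remaining Lck-/- arrays lay within or just above the WT range, so the groups overlapped. The difference was 1.06 (SE 0.54, limma adjusted p = 0.749), from 2.57 ± 0.34 (SD, n = 4) to 3.63 ± 1.30 (SD, n = 3). Without Lck-/- 1 it was 0.33, and without both WT 4 and Lck-/- 1 it was 0.28.

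Slc2a1 encodes GLUT1, the carrier that activated T cells are known to induce. It read 4.01, 3.66, 4.62 and 4.02 on the WT arrays and 4.85, 3.97 and 4.45 on the Lck-/- arrays. Lck-/- 1 and WT 3 were the highest, 1 from each group as labelled, and WT 2 was the lowest. The difference of 0.35 (SE 0.28, limma adjusted p = 0.857) was of the size of the spread within the groups, with SDs of 0.40 and 0.44. It was 0.13 without Lck-/- 1.

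The lactate exporter gene Slc16a3 (MCT4, mm9 chr11:120820030-120820089, plus strand) ranged over 3.41 log2 units. Its values were 4.48, 2.85, 5.85 and 3.26 on the WT arrays and 6.25, 3.45 and 4.34 on the Lck-/- arrays. Again WT 3 and Lck-/- 1 were high, WT 2, WT 4 and Lck-/- 2 were low, and the groups overlapped over most of their range. A second probe, which lies 7 bases upstream and overlaps the first, gave 4.57, 2.90, 5.67 and 3.27 against 5.84, 3.43 and 4.23, the same order of arrays. The difference was 0.57 (SE 0.85, limma adjusted p = 0.953), and it was -0.22 without Lck-/- 1 and -0.50 without WT 4 as well. Slc16a1, which encodes the lactate carrier MCT1, was the member with the lowest difference, -0.57 (SE 0.41, limma adjusted p = 0.840). It read -2.40, -1.82, -0.59 and -2.15 on the WT arrays and -2.01, -2.48 and -2.44 on the Lck-/- arrays. Only WT 3 stood apart, above all others.

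Pfkfb3 makes fructose 2,6-bisphosphate, the activator of phosphofructokinase. The probe that represents it (mm9 chr2:11393453-11393512, minus strand) read 2.85, 2.89, 3.14 and 2.99 on the WT arrays and 3.41, 3.26 and 3.41 on the Lck-/- arrays. All 3 Lck-/- arrays lay above all 4 WT arrays, by 0.39 on average (SE 0.13, 2.97 ± 0.13 against 3.36 ± 0.09). The unadjusted p of 0.020 became an adjusted p of 0.632 in limma. Leaving out WT 4 and Lck-/- 1 together left a difference of 0.37, and median centring of the arrays lowered it to 0.19. The second Pfkfb3 probe is split over 1414 bases of mm9, chr2:11404189-11405602 on the minus strand, which is longer than the 60 bases of the probe. It is printed because it reads another stretch of the transcript than the first probe, as given in the files:
Pfkfb3 A_52_P362917: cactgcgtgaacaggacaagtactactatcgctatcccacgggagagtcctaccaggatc
This probe read -2.90, -2.61, -2.27 and -2.70 on the WT arrays and -2.02, -2.66 and -1.79 on the Lck-/- arrays. The mean difference pointed the same way (0.46, SE 0.25, limma adjusted p = 0.773), but here Lck-/- 2 lay within the WT range.

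The enzymes of the upper part of glycolysis had differences of 0.16 to 0.31, none past the test, which shrank or turned without Lck-/- 1. Hexokinases trap glucose as glucose 6-phosphate. Hk1 read 8.10, 8.28, 7.81 and 8.07 against 8.65, 7.96 and 8.15 (0.19, SE 0.20, and -0.0088 without Lck-/- 1). Hk2 read 3.99, 3.50, 4.41 and 3.98 against 4.55, 4.35 and 3.93 (0.31, SE 0.24, and 0.17 without Lck-/- 1). On this Hk1 probe, WT 3 was the lowest array, whereas for Hk2 it was the highest WT array, and in both genes the groups overlapped. On the other Hk1 probes, WT 3 was the highest WT array as well (5.80 and 1.30). Gpi1, which converts glucose 6-phosphate to fructose 6-phosphate, differed by 0.23, by 0.01 without Lck-/- 1 and by -0.03 without WT 4 as well. The phosphofructokinase subunits Pfkl, Pfkm and Pfkp differed by 0.29, 0.16 and 0.31, and all 3 were highest on Lck-/- 1. Without that array they differed by 0.10, -0.09 and 0.07. The Pfkm probe was spotted 10 times on each array, and its SD between spots of an array (0.02 to 0.10) was smaller than its SD between WT arrays (0.22).

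Aldolase cleaves fructose 1,6-bisphosphate, and its isoforms differed in spread. Aldoa ranged over 0.49 log2 units across the 7 arrays, with a difference of 0.19 (0.08 without Lck-/- 1), and Aldoc over 3.91. Aldoc (mm9 chr11:78140198-78140257, plus strand) read 1.24, -0.06, 2.44 and -0.02 on the WT arrays and 3.40, -0.51 and 0.70 on the Lck-/- arrays. Lck-/- 1, WT 3 and WT 1 were high, the same order at the top as for Slc16a3, and both groups held high and low arrays. The difference was 0.29 with an SE of 0.96 (limma adjusted p = 0.987), and it was -0.81 without Lck-/- 1 and -1.11 without WT 4 as well.

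Of the enzymes that handle 3-carbon sugars, Tpi1, which interconverts the triose phosphates, differed by 0.15 with Lck-/- 1 and by -0.09 without it. Pgk1, the first ATP-making kinase of the pathway, differed by 0.36. Pgk1 read 8.26, 8.08, 8.53 and 8.09 against 9.21, 8.23 and 8.35, with Lck-/- 1 on its own at the top, and its difference was 0.05 without that array. The files place this probe on chromosome 3 although Pgk1 is X-linked, so signal from a related copy and signal from the gene cannot be told apart. Phosphoglycerate mutase, Pgam1, had a mean difference of 0.0012 (SE 0.17), and of -0.13 without Lck-/- 1. Enolase, Eno1, read 8.62, 8.42, 9.08 and 8.52 against 9.63, 8.51 and 8.85, again highest on Lck-/- 1 and WT 3. Its difference of 0.34 (SE 0.29) was 0.02 without Lck-/- 1 and -0.03 without both WT 4 and Lck-/- 1.

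Gapdh, which oxidises glyceraldehyde 3-phosphate and is often used as a reference gene, had 8 probes, of which the files place 6 on chromosome 6, 1 on chromosome 7 and 1 on chromosome 8 of mm9. The representative probe read 9.37, 9.73, 9.43 and 9.43 against 9.84, 9.35 and 9.39, a difference of 0.04 (SE 0.17, limma adjusted p = 0.990). WT 2 was the highest WT array and Lck-/- 1 the highest of all. Gapdh has many processed copies in the mouse genome, so probes may share transcripts of several loci. The following 3 probes are shown because they give the smallest difference, the largest, and a placement away from chromosome 6:
Gapdh A_55_P1965725 (chr6:125113229-125113288, minus): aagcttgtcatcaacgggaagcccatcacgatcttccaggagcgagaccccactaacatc
Gapdh A_55_P1994258 (chr6:125113312-125113371, minus): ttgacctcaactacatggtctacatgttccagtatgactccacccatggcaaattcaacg
Gapdh A_55_P2037425 (chr8:94212520-94212579, minus): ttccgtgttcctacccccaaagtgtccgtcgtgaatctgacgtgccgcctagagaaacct
The first gave 7.86, 7.28, 7.71 and 7.67 against 7.95, 7.50 and 7.55, a difference of 0.04. The second, next to it on the chromosome, gave 6.95, 6.58, 6.94 and 6.81 against 7.98, 6.69 and 6.97, a difference of 0.39. The third gave 9.29, 9.03, 9.43 and 9.13 against 9.72, 9.26 and 9.17, a difference of 0.16. All 8 Gapdh probes had differences above 0 (0.04 to 0.39), and all 8 were highest on Lck-/- 1. Without that array 1 of 8 was above 0 (-0.15 to 0.0039), and without WT 4 as well 0 of 8. WT 2, the highest WT array on the representative probe, was the lowest of the 7 on all 3 printed probes.

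Lactate dehydrogenase closes the glycolytic route. Ldha read 8.94, 9.14, 8.67 and 8.89 against 8.96, 8.73 and 8.98 (-0.02, SE 0.16), and Ldhb differed by -0.05 (SE 0.28), or by -0.06 and -0.19 without Lck-/- 1. On their representative probes both were highest on WT 2 and lowest on WT 3. Slc2a1, Slc2a3, Slc16a3 and Eno1 had their highest WT value on WT 3 and their lowest on WT 2. The other Ldha probes read 5.43, 5.51, 5.59 and 5.50 against 5.96, 4.98 and 5.73, and 7.80, 7.56, 7.99 and 7.66 against 8.47, 7.56 and 7.82. On both of those, Lck-/- 1 was the highest array and WT 3 the highest WT array. The 3 Ldha probes did not agree in sign, with differences of -0.02, 0.05 and 0.20. Probes also disagreed for Hk1 (-0.32 to 0.35), Pfkp (-0.06 to 0.31), Pdhb (-0.03 to 0.41) and Ogdh (-0.23 to 0.21). With all arrays, 5 of the 11 members with several probes thus had no settled direction, and 26 members had 1 probe. Without Lck-/- 1, 0 of 3 Ldha probes (-0.15 to -0.06) and 3 of 3 Pdhb probes (0.0039 to 0.44) were above 0. Probes of Hk1, Pfkp and Ogdh still disagreed without it, and those of Gapdh, Gpi1 and Tpi1 then disagreed as well. The Hk1 probe at -0.32 had no value on Lck-/- 1.

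**Figure D2:**
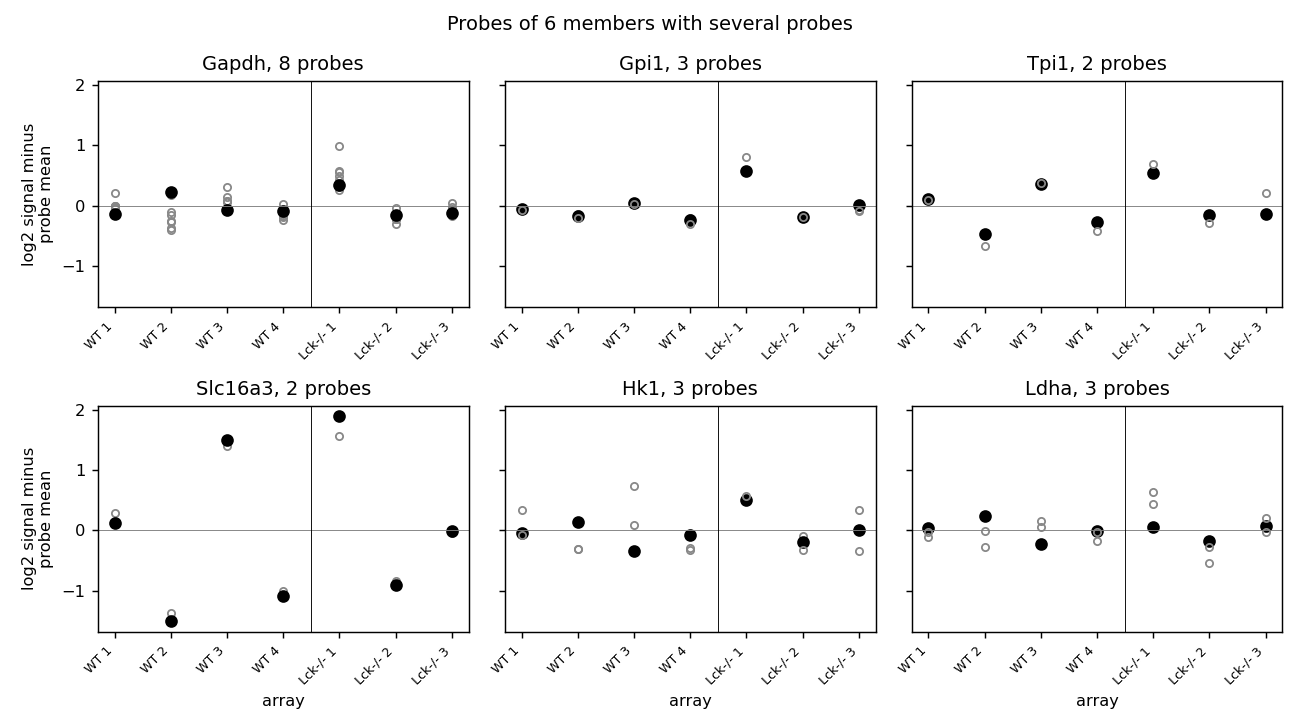
Log2 signal of each probe minus its mean over the 7 arrays, for 6 members with several probes; filled points are the probe that represents the gene and open points its other probes. Probes of Gpi1 and those of Slc16a3, which overlap each other on the genome, follow each other across arrays. The separate probes of Tpi1 part on Lck-/- 3, and those of Hk1 and Ldha on WT 3 and WT 2.

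Read together, 17 of the 20 carrier and glycolytic genes had differences above 0 with a median of 0.26, beside 57.6% of all genes above 0 and an all-gene median of 0.04. These counts rested on 1 array. Without Lck-/- 1, 10 of 20 were above 0 and the median was 0.0026, and without both WT 4 and Lck-/- 1 it was -0.03 with 8 of 20 above 0. On Lck-/- 1, 17 of the 20 genes had their highest value of the 7 arrays, as had 19.9% of all genes. That count was 14 after quantile normalization, 13 after normexp with quantile normalization, 12 in the deposited table and 3 after median centring, against 13.0%, 12.7%, 15.5% and 2.97% of all genes. Of the 11 TCA cycle and pentose phosphate genes with a value on every array, 7 were also highest on Lck-/- 1 in the main scaling. For them the count was 2 after quantile normalization, with or without normexp, 4 in the deposited table and 0 after median centring. WT 3 was the highest WT array for 13 of the 20 genes, beside 10.6% of all genes, and this count ran from 13 to 16 under the other 4 scalings, beside 11.5% to 26.3% of all genes. WT 3 and Lck-/- 1 were both among the top pair of arrays for 9 of 20 genes, beside 4.49% of all genes, and for 5 to 10 of 20 under the other scalings.

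Inside the mitochondria, pyruvate enters the TCA cycle through the pyruvate dehydrogenase complex or through pyruvate carboxylase. Pdk1, the kinase that switches the complex off, differed by 0.14 (SE 0.28), or by -0.0007 without Lck-/- 1, and was the only gene of the 4 with a range over 1 log2 unit (1.03). It read 2.50, 1.60, 2.63 and 1.92 against 2.59, 2.03 and 2.30, with WT 3, Lck-/- 1 and WT 1 at the top. The complex's E1 subunits Pdha1 and Pdhb differed by -0.06 and -0.03, and without Lck-/- 1 by -0.10 and 0.0039. Pdhb read 5.54, 5.43, 5.25 and 5.55 against 5.33, 5.49 and 5.39, so that every Lck-/- array lay inside the WT range. Pcx, pyruvate carboxylase, read 0.82, 0.53, 0.57 and 0.26 against 0.77, -0.04 and 0.30. Its difference was -0.20 (SE 0.22, limma adjusted p = 0.916), the groups overlapped, and without Lck-/- 1 the difference was -0.41.

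The TCA cycle genes differed little in either direction, with 4 of 8 differences above 0 and a median of 0.0031. Mdh2, the mitochondrial malate dehydrogenase, read 8.13, 8.23, 7.90 and 8.17 against 8.33, 8.11 and 7.92 (0.01, SE 0.16, limma adjusted p = 0.997, and -0.09 without Lck-/- 1). Its cytosolic counterpart Mdh1 differed by -0.01 and fumarase, Fh1, by -0.05 with a range of 0.14 over all arrays, the narrowest of any member. Citrate synthase, Cs, which opens the cycle, differed by 0.17 (SE 0.17), or by 0.0053 without Lck-/- 1. Suclg1, a subunit of succinyl-CoA ligase, had the highest difference of the group, 0.22 (SE 0.16, and 0.13 without Lck-/- 1). Idh2 and Idh3a, mitochondrial isocitrate dehydrogenases, differed by 0.12 and -0.13, and by 0.07 and -0.18 without Lck-/- 1.

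Ogdh, the E1 enzyme of the 2-oxoglutarate dehydrogenase complex, had the largest absolute difference in the cycle, -0.23 (SE 0.26, limma adjusted p = 0.915). It read 4.90, 5.10, 5.70 and 4.93 on the WT arrays and 4.85 on Lck-/- 2, and Lck-/- 3 lay between WT 4 and WT 2 (mean of both, 4.92). Its spot on Lck-/- 1 was marked as an outlier and left out, so this difference compares 4 arrays with 2, and WT 3 alone stood high. A neighbouring probe with a value on every array gave 5.11, 5.17, 4.85 and 5.05 against 4.87, 4.90 and 4.94, a difference of -0.14, and on it WT 3 was the lowest array. The third Ogdh probe differed by 0.21.

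In the pentose phosphate pathway, G6pdx, the NADPH-making entry enzyme, differed by -0.03 and Rpia, which makes ribose 5-phosphate, by -0.09. Tkt, transketolase, read 7.00, 7.05, 6.66 and 6.89 against 7.14, 6.81 and 7.05 (0.10, SE 0.16, and 0.03 without Lck-/- 1). Taldo1, transaldolase, read 6.80, 6.83, 6.50 and 6.76 against 7.06, 6.92 and 6.63 (0.15, SE 0.16, limma adjusted p = 0.914, and 0.05 without Lck-/- 1). In both genes the groups overlapped and WT 3 was the lowest of the 7 arrays. All 4 genes had their lowest WT value on WT 3, as had 50.3% of all genes.

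**Figure D3:**
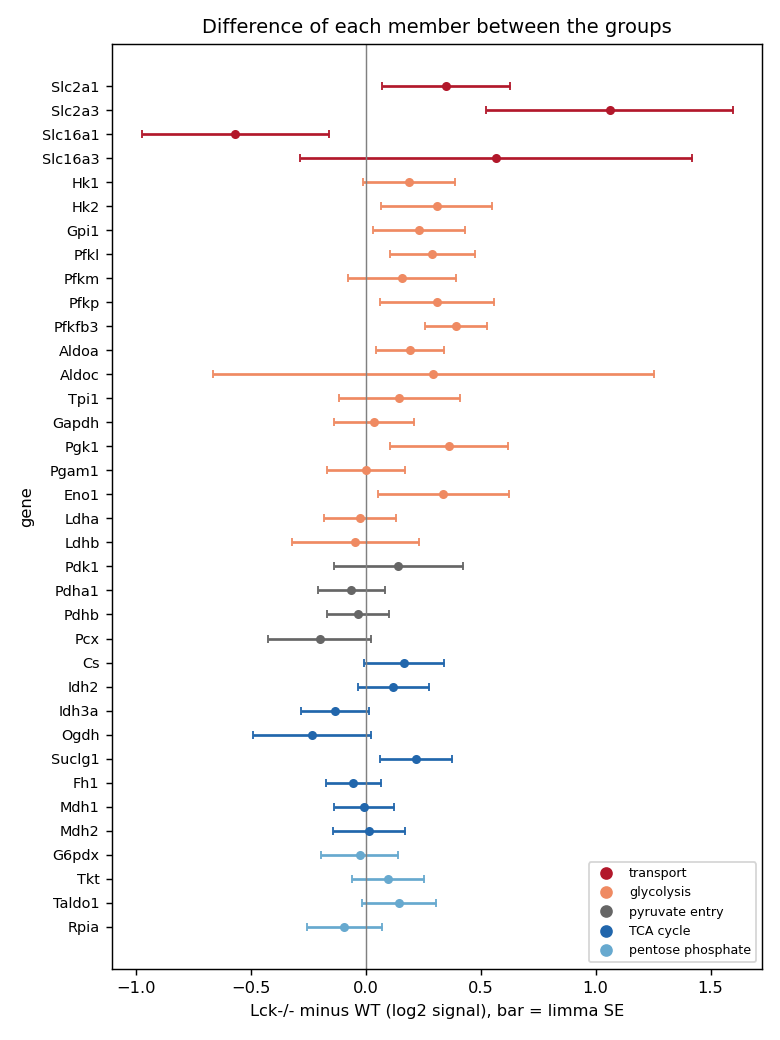
Difference between the groups (Lck-/- minus WT, log2 signal) for each of the 36 tested members, coloured by role; bars are the limma standard error. Slc2a3 has the highest difference (1.06), Slc16a1 the lowest (-0.57), and Pfkfb3 is the one member at an unadjusted p under 0.05.

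Uptake and glycolysis were then compared with the TCA cycle and pentose phosphate genes on each array. The range over the 7 arrays exceeded 1 log2 unit in 11 of the 20 carrier and glycolytic genes and in 0 of 12 TCA cycle and pentose phosphate genes, beside 30.1% of all genes. The median range was 1.03 in the former, 0.51 in the latter and 0.71 over all genes. Under the other 4 scalings the first count was 6 or 7 of 20 and the second 0 or 1 of 12. The first was 30% beside 28.2% of all genes after quantile normalization, and 30% beside 12.2% with normexp. It was 35% beside 11.7% in the deposited table and 30% beside 45.1% after median centring. The median range of the carriers and glycolytic genes was the higher of the 2 sets under each of these scalings (0.71 to 0.92 against 0.37 to 0.54), and after median centring it was below that of all genes (0.96). All these ranges include Lck-/- 1. In the main scaling it was the highest array for 17 of the 20 carrier and glycolytic genes. Without it, only Slc16a1, Slc16a3, Aldoc and Ldhb of the 20 still ranged over more than 1 log2 unit.

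As a score, the mean deviation of the carrier and glycolytic genes from their own means was -0.06, -0.31, 0.24 and -0.27 on WT 1 to WT 4 and 0.70, -0.25 and -0.06 on Lck-/- 1 to Lck-/- 3. For the TCA cycle and pentose phosphate genes it was 0.08, 0.03, -0.13 and -0.02 against 0.16, 0.01 and -0.12. The first minus the second gave -0.14, -0.33, 0.36 and -0.24 against 0.54, -0.26 and 0.06. Lck-/- 1 and WT 3 thus led, 1 from each group as labelled, WT 2, WT 4 and Lck-/- 2 were lowest, and the groups overlapped. The 4 WT arrays averaged -0.09 ± 0.31 (SD) and the 3 Lck-/- arrays 0.11 ± 0.40 (SD). These means lay 0.20 apart, which was smaller than either SD. It was -0.01 without Lck-/- 1. On this contrast, Lck-/- 1 was the highest array and WT 3 the second also after quantile normalization, with or without normexp, and in the deposited table, with differences between groups of 0.19 to 0.20. Median centring shifts both scores of an array alike, so the contrast between the groups stayed at 0.20. Each score by itself did move with it. The carrier and glycolysis score was then 0.24 on Lck-/- 1 and highest on WT 3 (0.36). The TCA cycle and pentose phosphate score was then lowest on Lck-/- 1 (-0.30).

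**Figure D4:**
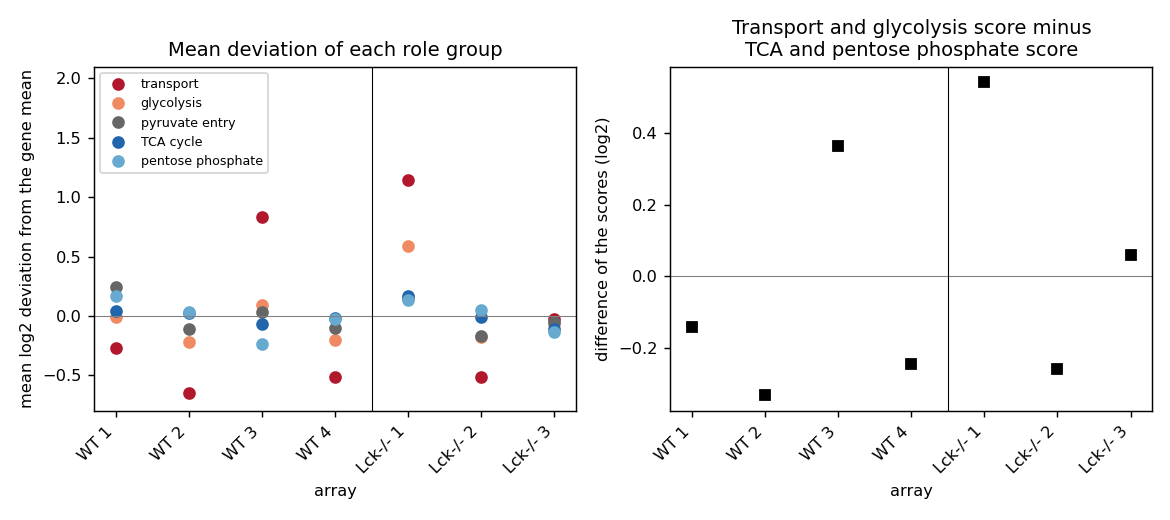
Left, mean log2 deviation of each role group on each array from the genes' own means; right, the carrier and glycolysis score minus the TCA cycle and pentose phosphate score, in log2 units (no error bars, since each point is 1 array). The right panel is highest on Lck-/- 1 (0.54) and WT 3 (0.36) and lowest on WT 2 (-0.33).

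Array measures and marker lists were set beside this contrast. Lck-/- 1 and WT 3 had the largest shares of spots well above background (61.1% and 56.2%, against 46.6% to 54.3% on the other 5) and the most spots marked as non-uniform (422 and 1403, against 1 to 144). Over all 14090 genes with a value on every array, their deviations from the group means correlated at 0.40. Other pairs of a WT and an Lck-/- array ran from -0.43 to 0.35. Transcripts of 10 natural killer cell genes deviated by -1.09, -0.49, -1.32 and 1.11 on the WT arrays and -0.04, 1.52 and 0.18 on the Lck-/- arrays, all 10 with differences above 0, with summed linear signals of 5.13 to 11.3 and 3.02 to 15.4 times the 75th percentile. The 12 genes of mitosis deviated by 1.32, -0.04, 0.94 and -0.16 against -0.05, -0.98 and -0.96, all 12 with differences below 0, with sums of 144 to 396 and 84.6 to 161. The 3 measured erythroid genes deviated by -1.47, 1.14, -1.19 and 2.29 against -1.10, 0.60 and -0.26, with 2 of 3 differences above 0 and sums of 1.27 to 21.1 and 1.93 to 7.56. The 6 measured dendritic cell and macrophage genes deviated by -0.82, 0.37, -0.64 and -0.04 against -0.13, 0.58 and 0.46, with 6 of 6 differences above 0, sums of 0.346 to 6.55 and 4.30 to 8.22, and Cd209a below the filter. The 6 CD8 T cell genes deviated by -0.08, 0.05, -0.41 and 0.02 against 0.28, 0.06 and 0.01, lowest on WT 3 and highest on Lck-/- 1. Their differences were above 0 in 6 of 6, with sums of 214 to 401 and 342 to 479. The 2 measured B cell genes deviated by -0.65 on WT 3 and -0.01 on Lck-/- 1. No gene of these lists was called, and their part in the contrast was not tested. On Lck-/- 1 and WT 3, where the contrast was high, the erythroid genes were low. They were lowest on WT 1 (-1.47), where the contrast was -0.14. The mitosis genes were high on WT 1 and WT 3 and near their mean on Lck-/- 1, and the natural killer cell genes were near their mean on Lck-/- 1 and low on WT 3 and WT 1.

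The same pathways hold 46 further genes that were listed as a reference, of which 40 were tested. None was called, 20 had differences above 0 and 20 below, and 1 had an unadjusted p under 0.05 (Eno2, the enolase of neurons, 0.63, SE 0.26, limma adjusted p = 0.70, and 0.50 without Lck-/- 1). Without Lck-/- 1, 17 of the 40 were above 0. Of the 14 glycolytic genes among them 10 were above 0 (median 0.19, and 8 with a median of 0.02 without Lck-/- 1), of the 9 around pyruvate 2 (median -0.12), of the 12 of the TCA cycle 6 (median 0.0068) and of the 5 of the pentose phosphate pathway 2 (median -0.02). Pkm, pyruvate kinase, read 7.80, 7.65, 7.91 and 7.67 against 8.22, 7.74 and 7.71 (0.13, SE 0.17, and -0.03 without Lck-/- 1), with Lck-/- 1 and WT 3 again at the top.

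The promoters of the members were searched for ACGTG, the core of sites bound by hypoxia-inducible factors, and for CACGTG, the E-box bound by Myc, which contains ACGTG on both strands. Windows of 300 bases, from 250 before to 50 after each start, came from RefSeq on GRCm38.p6 and were found for 35 members. No window was given for Slc2a3 and Idh3a. On either strand, ACGTG occurred in 18 of 35 members (51.4%), beside 21.8% of 27025 genes, and CACGTG in 6 of 35 (17.1%), beside 8.09%. By role, ACGTG occurred in 13 of 19 carrier and glycolytic genes and in 3 of 12 TCA cycle and pentose phosphate genes. The members' windows were richer in G and C than all windows (median 60.8% against 52.7%), and the part of base composition in these counts was not tested. The 250 bases before the start are shown, with ACGTG on either strand in capitals. They are given for 3 genes that were highest on Lck-/- 1 and for Ldha, which had 5 matches and whose representative probe was highest on WT 2:
Slc2a1 (chr4:119108495-119108744, plus): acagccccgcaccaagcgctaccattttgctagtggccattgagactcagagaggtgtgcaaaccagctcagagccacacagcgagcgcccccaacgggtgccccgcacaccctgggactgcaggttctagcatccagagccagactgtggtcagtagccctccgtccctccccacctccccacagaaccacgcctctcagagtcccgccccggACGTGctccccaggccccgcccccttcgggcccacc
Slc16a3 (chr11:120948817-120949066, plus): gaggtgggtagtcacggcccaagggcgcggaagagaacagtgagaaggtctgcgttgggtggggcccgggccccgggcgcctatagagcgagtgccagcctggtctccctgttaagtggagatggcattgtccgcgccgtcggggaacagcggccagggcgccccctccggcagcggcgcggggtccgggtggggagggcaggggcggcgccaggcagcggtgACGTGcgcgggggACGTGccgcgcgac
Pgk1 (chrX:106186850-106187099, plus): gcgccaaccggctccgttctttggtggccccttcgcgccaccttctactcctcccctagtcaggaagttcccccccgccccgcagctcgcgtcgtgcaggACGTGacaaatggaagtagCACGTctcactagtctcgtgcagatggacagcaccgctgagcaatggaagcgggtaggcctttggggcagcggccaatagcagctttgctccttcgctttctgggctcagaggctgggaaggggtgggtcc
Ldha (chr7:46845554-46845803, plus): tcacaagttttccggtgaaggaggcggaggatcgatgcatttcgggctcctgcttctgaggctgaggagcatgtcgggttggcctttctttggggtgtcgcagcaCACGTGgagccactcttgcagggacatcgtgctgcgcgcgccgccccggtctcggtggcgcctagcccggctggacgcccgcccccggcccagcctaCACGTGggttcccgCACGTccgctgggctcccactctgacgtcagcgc
Slc2a1 held 1 match, Slc16a3 and Pgk1 held 2 each, and the matches of Ldha include those of CACGTG counted on both strands. A match in these letters is a description of the window and not a bound site. On their representative probes, Slc16a3 and Ldha, both with matches, lay far apart in their spread over the arrays, at 3.41 and 0.47 log2 units. The other Ldha probes spread wider than its representative, from 4.98 to 5.96 and from 7.56 to 8.47.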

How the data were processed

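Total RNA of 7 samples was hybridised to Agilent 1-colour mouse arrays. Per the file headers, Agilent Feature Extraction 10.7.3.1 produced the deposited spot intensity, background-subtracted but not scaled between arrays, with probe coordinates on mm9. A value table deposited by the authors is on the log2 scale (column medians 6.57 to 6.61, correlations with log2 mean signal of 0.9972 to 0.9996). How it was normalized is not stated, and it served as an alternative. The submitters' processing notes name limma.

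Processed signals were divided by the array's 75th percentile and taken to log2, outlier-flagged spots were left out and spots of a probe averaged. A probe entered when well above background on at least 3 of 7 arrays, and the probe with the highest mean stood for its gene. Other genes were named by accession (27180 probes), symbol (3577), synonym (565) or the file's own name (1650); 22650 unnamed probes were left out. Groups came from the titles. Lck-/- was compared with WT by limma 3.58.1 in R 4.3.3 (two-sided, Benjamini-Hochberg over all genes, threshold 0.05). On simulated data with 200 of 14090 genes changed by 2 log2 units, 185 were recovered with 7 false calls. That change was larger than the difference of any member, and the simulated noise was independent between arrays. Recovery of differences of the members' size was therefore not measured. All arrays shared 1 slide and scan, and their small number limits the precision. The members, lists and alternatives were chosen with earlier results of these data known. Values per array were to be printed for members called or at an unadjusted p under 0.05 and, per role, for the member with the largest absolute difference and that with the highest mean; members whose probes disagreed in sign were to be named. Of the others, Slc2a1, Slc16a1, Hk2, Pgk1, Eno1, Aldoc and Pdk1 were chosen for printing after their values were seen, as were Pkm and Eno2. Alternatives were other scalings (quantile, normexp with an offset of 50, median centring, the deposited table), background filters, probe summaries, replicate blocks and leaving out arrays; for single probes and the other pathway genes, leaving out Lck-/- 1 (and WT 4) was added after seeing the data.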

Additional observations from a re-analysis of the deposited data

Results flagged for a closer look

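The WT values of Gapdh were marked because 1 array stood apart. WT 2 read 9.73 on the representative probe, against 9.37 to 9.43 on the other WT arrays, and its gap to the nearest value was 0.83 of the group's range. This was 1 of 45 groups of values tested, and chance marks about 1 in 20 such groups.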

How the results depend on the processing

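No member was called under any of the 18 alternatives to the fit over all genes; the lowest adjusted p was 0.449, for Pcx without WT 4 and Lck-/- 1. The TCA cycle median moved from 0.0031 to -0.066 after quantile normalization, -0.063 after normexp with quantile normalization and -0.083 in the deposited table. Median centring moved the median of all genes from 0.04 to -0.16; with it the medians became -0.060 for the members, 0.0086 for glycolysis, -0.25 for pyruvate entry, -0.20 for the TCA cycle and -0.17 for the pentose phosphate genes, with 0 members at an unadjusted p under 0.05. It shifts all genes of an array alike, so it does not bear on differences relative to all genes. Of all genes at an unadjusted p under 0.05, 69.3% were higher in Lck-/- in the main scaling, 55.6% after quantile normalization, 55.1% with normexp, 22.5% after median centring and 48.0% in the deposited table. Without a background filter 2 members had an unadjusted p under 0.05. Without WT 4 and Lck-/- 1 together, 57 genes were called, none a member, and the medians were -0.048 for the members, -0.030 for glycolysis and -0.046 for the TCA cycle.

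Leaving out each array in turn gave 0 to 1 genes called, 0 to 2 members at an unadjusted p under 0.05 and medians of -0.022 to 0.20 for the members, -0.04 to 0.88 for the carriers, 0.0026 to 0.32 for glycolysis, -0.12 to -0.0018 for pyruvate entry, -0.053 to 0.066 for the TCA cycle and -0.04 to 0.09 for the pentose phosphate genes; the score contrast ran from -0.01 to 0.39. The sign of a member's difference changed in 77 of 612 comparisons with an alternative, none of them past the threshold on either side. Deviations from the group means correlated at 0.11, 0.06 and -0.03 between arrays with the same title number. They correlated at 0.11, -0.43 and 0.16 between arrays with the same file-name number, so no pairing was assumed. The highest value for any WT and Lck-/- array was 0.40, for WT 3 and Lck-/- 1. With the title number or the file-name number as a replicate block, 1 gene was called and 0 members had an unadjusted p under 0.05. Where a value moved, the cause was not tested. Signal over background limits Idh1, which was under the filter, and the dimmer probes of Pfkfb3 and Slc16a1.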
